A study of Mus musculus with 6 samples.

Results

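The nuclear-encoded subunits of the mitochondrial respiratory chain and of ATP synthase were examined in myeloid cells of the mouse pancreas after β-glucan training. Members were all protein-coding genes of the count table whose GENCODE annotation symbol (release vM21) starts with Nduf followed by a, b, c, s or v and a number, is Sdha, Sdhb, Sdhc or Sdhd, or starts with Uqcr, Cox4 to Cox8 or Atp5. The rule used no measured value. It found 85 genes among the 21780 genes of the table, which carry 84 symbols because Atp5o has a pair of Ensembl entries, and 81 of them were among the 14429 genes that could be tested. By symbol, 37 members belong to complex I, 4 to complex II, 8 to complex III, 18 to complex IV and 18 to complex V. None of the 13 protein-coding genes of the mitochondrial genome is in the table, so the subunits described here are only those made from nuclear genes.

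The cells had been sorted as CD45+CD11b+ from pancreata of young adult wild-type C57BL/6 mice 7 days after a single intraperitoneal dose of whole β-glucan particles from yeast (WGP) or of PBS as the control, and their polyadenylated RNA was sequenced. Each group had 3 libraries, PBS-1 to PBS-3 and WGP-1 to WGP-3. The study used mice of both sexes and describes its samples as independent animals from 1 experiment, whereas the labels tie no library to an animal or a sex, and p-values measure the spread between these libraries. In such bulk samples fewer cells of a type and less RNA per cell cannot be told apart.

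The libraries held between 35334645 and 43341834 counts. The genes of the myeloid gate (Ptprc, Itgam, Csf1r, Lyz2, Adgre1 and Cd68) were present in all libraries and summed to between 9327 and 15382 CPM (TMM-scaled counts relative to the library total) in PBS and between 21656 and 22951 in WGP. Marker levels of several cell types differed between the groups. All 9 of 9 resident macrophage markers fell, with summed levels of 5599 to 14280 CPM in PBS and 976 to 1167 in WGP, as did the 10 of 10 acinar cell markers tested (1522 to 5582 CPM in PBS, 385 to 632 in WGP) and 5 of 5 B cell markers (361 to 2414 CPM in PBS, 86.8 to 169 in WGP). Of 8 markers of Ly6C-high monocytes 5 rose and 1 fell, with a median log2 fold change of 1.92 and summed levels of 2671 to 4232 CPM in PBS and 3865 to 4439 in WGP. The 1 that fell, F13a1, is also among the 9 resident macrophage markers. PBS-1 stood apart from the other PBS libraries, with the fewest resident macrophage counts and the most B cell and neutrophil counts. Counts of Y-linked genes were 8972 in PBS-2 and 10063 in PBS-3, and between 0 and 1 in PBS-1 and all WGP libraries. Such counts come from male cells, so sex, which the labels do not give, partly goes with the group. It cannot be fully told apart from the treatment. No measured marker of these 4 lists was at 0 in all libraries, and their part in the results that follow was not tested.

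The respiratory chain passes electrons from NADH (complex I) and succinate (complex II) through ubiquinone, complex III and cytochrome c to oxygen at complex IV, and the proton gradient built on the way drives ATP synthase (complex V). Complexes I, III, IV and V are assembled from subunits of both genomes, whereas all complex II subunits are nuclear-encoded. Succinate dehydrogenase is complex II itself, which places it in the citric acid cycle as well, and in activated macrophages the flow of electrons through the chain is known to be rerouted.

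Most subunit genes were higher after WGP, by modest amounts. Of the 81 members tested, 17 (21.0%) rose at an adjusted p of at most 0.05, beside 7.54% of all genes tested, and 0 fell, beside 6.81% of all genes. The genes tested include many with few counts. Where at least 10 counts were required in every library, 18 of 76 members rose, beside 1136 of 10729 genes, and 0 fell, beside 1071 genes. The count of 0 falls came from edgeR's quasi-likelihood test and was also 0 with DESeq2 and with limma-voom, and at an unadjusted p under 0.05 34 members were higher (42.0%), beside 12.9% of all genes, and 0 were lower, beside 13.1%. The changes were small: with a log2 fold change of at least 1 required in addition, 1 member (Cox5a) rose, beside 4.53% of all genes, and 0 fell, beside 4.96%. The median log2 fold change was 0.32 over the members and -0.05 over all genes tested, and 70 members were higher and 11 lower. In 46 of the 81 members (56.8%) every WGP library lay above every PBS library, which held for 16.0% of all genes, and in 2 members (2.47%) every WGP library lay below, which held for 16.1% of all genes.

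**Figure D1:**
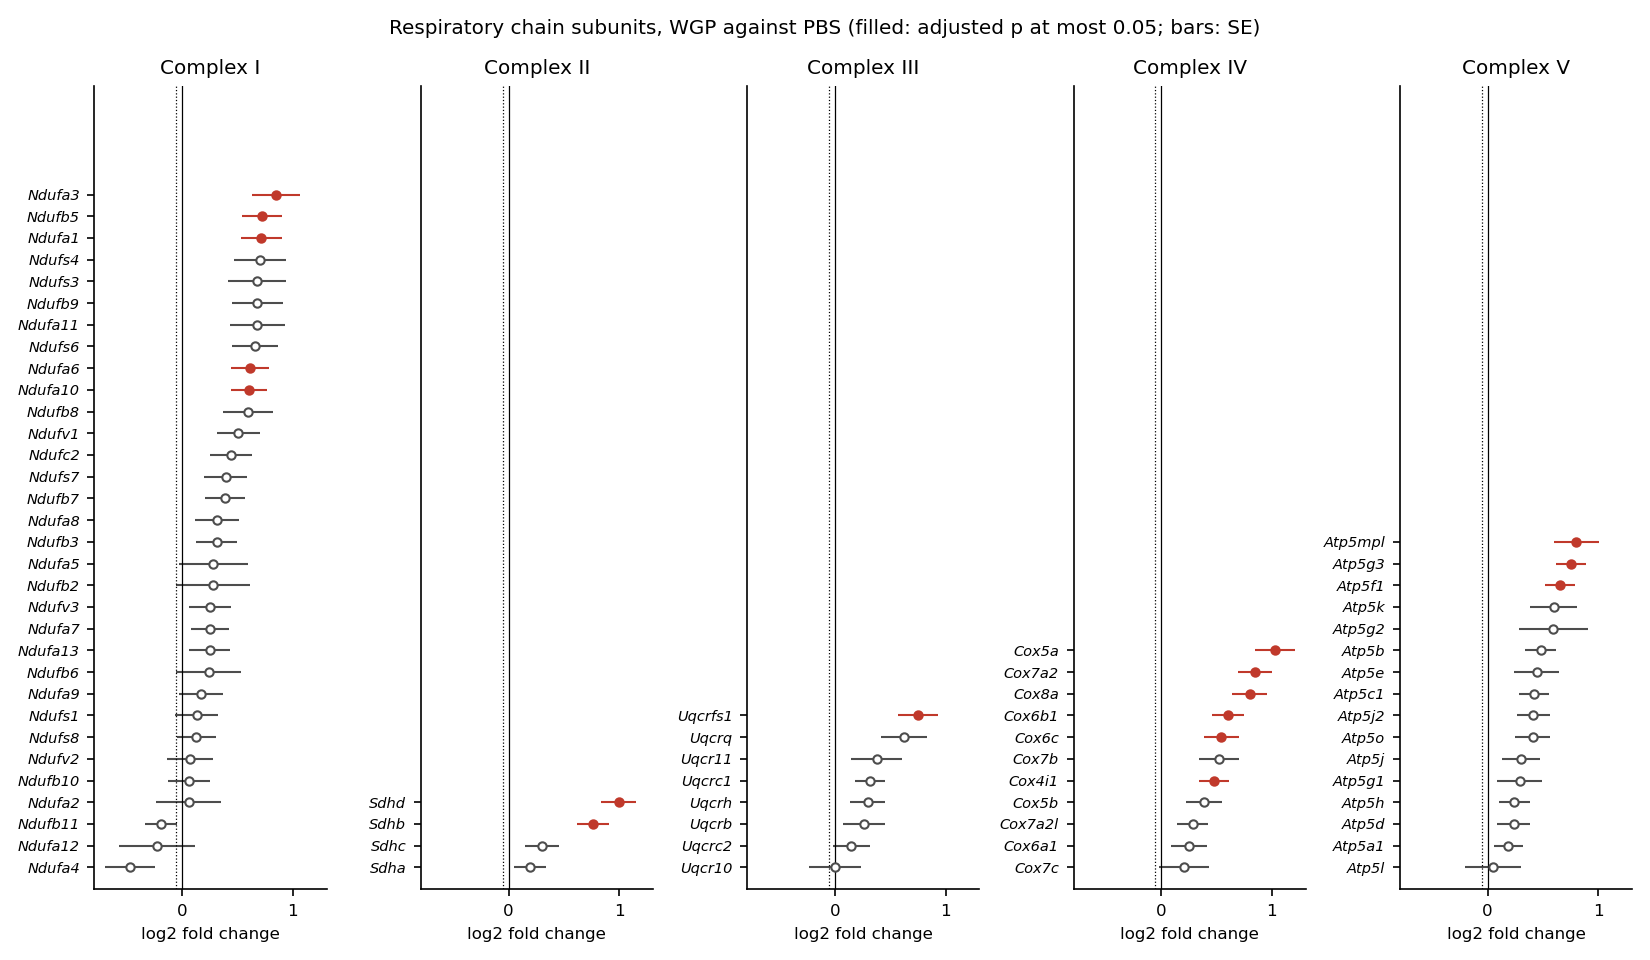
The log2 fold change of WGP against PBS (x axis) is plotted with its standard error, in 5 panels by complex. Shown are 71 of the 72 members with a mean of at least 10 CPM. Filled points are the 17 members at an adjusted p of at most 0.05, the solid line marks no change and the dotted line marks the median of all genes tested, -0.05. In complexes II to V all members shown lie to the right of 0, and in complex I Ndufa4, Ndufa12 and Ndufb11 lie to its left.

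The summed level showed the same in each library. All members together summed to 4717, 4455 and 4357 CPM in PBS-1 to PBS-3 and to 5938, 5822 and 6073 CPM in WGP-1 to WGP-3, a ratio of 1.32. The groups did not overlap, and neither did they in any of the 5 complexes. The ratio of the summed CPM was 1.26 for complex I, 1.37 for complex II, 1.26 for complex III, 1.45 for complex IV and 1.31 for complex V. Per kb of transcript the ratio was 1.53 for complex II and 1.46 for complex IV, so the order of these complexes depends on the scale. Taken gene by gene, the median member lay 0.36, 0.30 and 0.42 above the PBS mean (log2 scale) in WGP-1 to WGP-3, whereas the same median in the PBS libraries was 0.08, -0.06 and -0.07. The corresponding median over all genes tested was between -0.06 and 0 in every library.

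**Figure D2:**
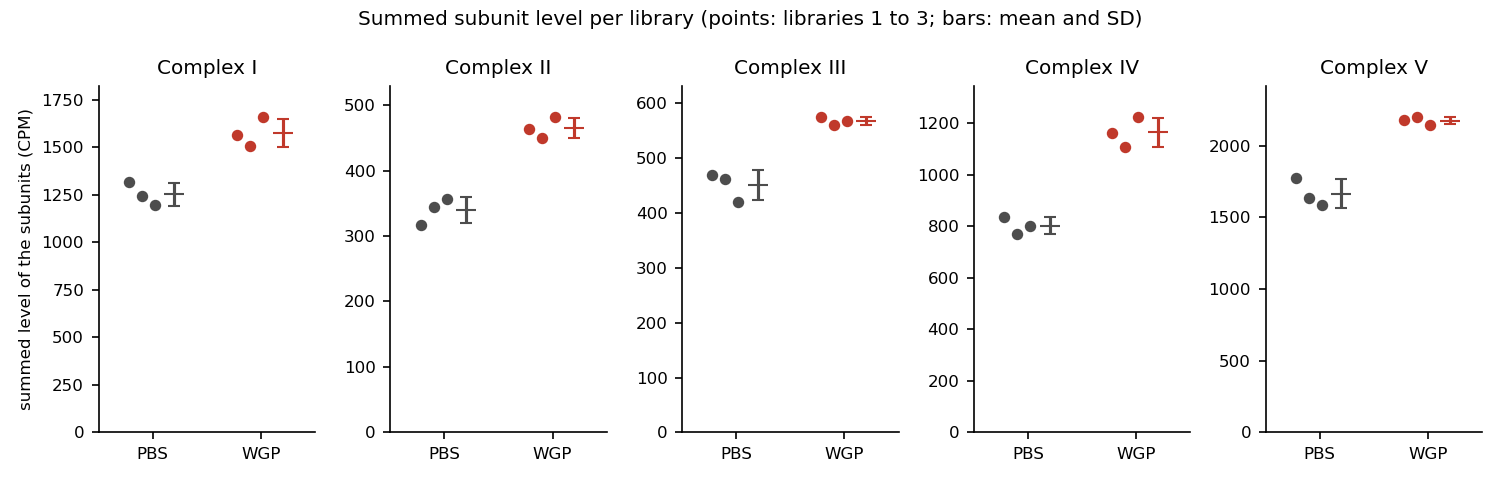
The summed level of all subunits of a complex (y axis, CPM, starting at 0) is shown for each library, with the mean and SD of each group to the right of its points. The 3 WGP libraries lie above the 3 PBS libraries in all 5 panels, and the ratio of the means runs from 1.26 in complexes I and III to 1.45 in complex IV on this scale.

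The Y-linked counts and PBS-1 bear on these numbers. With a covariate for whether Y-linked counts were present, which leaves PBS-1 as the only PBS library without them, 66 of 81 members were higher and 4 rose (Sdhd, Atp5g3, Cox6b1 and Atp5f1), and 1 fell, Ndufa4. In that fit the share of members that rose, 4.94%, was below the 6.76% of all genes that rose, and the share that fell was 1.23% beside 5.69% of all genes. Set against PBS-1 alone, all WGP libraries were higher in 53 of the 81 members (65.4%), beside 29.1% of all genes, and lower in 10 (12.3%), beside 35.3%. Without PBS-1, 16 of 80 members rose, beside 1152 of 14193 genes. The number of rises among 81 members was lower when another library was left out. It was 8 without PBS-2 (beside 774 of 14182 genes) and 10 without PBS-3 (979 of 14229). It was 8 without WGP-1 (805 of 14299), 13 without WGP-2 (906 of 14183) and 7 without WGP-3 (784 of 14325). In each of these fits 0 members fell, beside 645 to 1051 falls over all genes. WGP-2 was the library with a summed fibroblast marker level of 1803 CPM, against 33.7 to 171 in the other libraries.

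Complex I, the NADH dehydrogenase, had the most members, with 5 of 37 rising (13.5%, beside 7.54% of all genes tested), 0 falling (beside 6.81%) and a median log2 fold change of 0.28. Its proximal membrane arm held most of them, with 3 of 9 members (Ndufa1, Ndufa3 and Ndufa10) rising. In the N module, which binds NADH, 0 of 8 members rose and the median was 0.19, in the Q module, which reduces ubiquinone, 1 of 8 rose (Ndufa6), and in the distal membrane arm 1 of 10 did (Ndufb5). The counts of 1 in the Q module (12.5%) and in the distal arm were close to the share of all genes, 7.54%, and the differences between modules were not tested.

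Ndufb5, an accessory subunit of the distal arm, was at 30.9, 34.2 and 29.3 CPM in PBS and at 57.2, 44.7 and 53.5 CPM in WGP, a log2 fold change of 0.72 ± 0.18 (SE, adjusted p = 0.0244). Ndufa3, an accessory subunit of the proximal arm, was at 27.8, 38.7 and 24.5 CPM in PBS and at 46.4, 55.9 and 61.6 CPM in WGP (log2 fold change 0.85 ± 0.22, adjusted p = 0.0272). Ndufa1, an X-linked accessory subunit that complex I cannot be assembled without, was at 30.6, 28.2 and 25.6 CPM in PBS and at 45.5, 51.6 and 41.7 CPM in WGP (log2 fold change 0.72 ± 0.19, adjusted p = 0.0274). None of the 3 genes had overlapping groups. Ndufa10 and Ndufa6, with log2 fold changes of 0.60 and 0.62, also rose without overlap. Each of these 5 calls was lost in 5 to 8 of the 19 alternative analyses, all with the same direction.

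Core subunits named here did not pass. Ndufv1, which carries the flavin that accepts electrons from NADH, had a log2 fold change of 0.51 (adjusted p = 0.12), Ndufs1 0.13 (adjusted p = 0.741) and Ndufv2 0.07 (adjusted p = 0.886). Ndufs3 had 0.68 without overlap (adjusted p = 0.122), Ndufs7 0.39 (adjusted p = 0.238) and Ndufs8 0.13 (adjusted p = 0.71). The accessory subunits Ndufs4, Ndufs6 and Ndufb9 had log2 fold changes between 0.66 and 0.70 with no overlap between the groups and adjusted p from 0.0628 to 0.0839. Ndufa2, an accessory subunit of the N module, had the log2 fold change nearest to 0 among complex I members over 10 CPM (0.06, adjusted p = 0.936), at 52.9, 37.1 and 28.8 CPM in PBS and 31.9, 32.6 and 59.0 CPM in WGP. Ndufb11, an X-linked accessory subunit, was 1 of the 2 members whose WGP libraries all lay below the PBS libraries, at 63.8, 68.0 and 65.3 CPM in PBS and 59.3, 56.6 and 56.7 CPM in WGP, but its log2 fold change was -0.19 ± 0.15 (adjusted p = 0.441). Ndufab1, the acyl carrier protein of complex I, falls outside the symbol rule and did not pass (log2 fold change 0.90 ± 0.50, adjusted p = 0.295).

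In complex II 2 of 4 subunits rose (beside 7.54% of all genes), Sdhd and Sdhb, and the median was 0.53. All 4 were higher in every WGP library than in any PBS library, which held for 16.0% of all genes. Sdha and Sdhc did not pass, and the difference between the subunits was not tested. The Y-linked covariate sets WGP against PBS-1 alone. With it the log2 fold changes were 1.17 for Sdhd, 0.70 for Sdhb, 0.43 for Sdha and 0.15 for Sdhc. Sdhb then did not pass.

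Sdhd (ENSMUSG00000000171, chr9:50596357-50603812 on GRCm38), which anchors complex II in the inner membrane, was at 39.9, 46.5 and 48.6 CPM in PBS and at 89.2, 92.4 and 87.4 CPM in WGP. The highest PBS library lay well below the lowest WGP library, and the log2 fold change was 0.99 ± 0.15 (SE, adjusted p = 0.0017), the smallest adjusted p among the members. Sdhb, the iron-sulphur subunit, was at 62.5, 55.9 and 61.0 CPM in PBS and at 102, 93.6 and 109 CPM in WGP (log2 fold change 0.76 ± 0.14, adjusted p = 0.00543). Sdhc, the other membrane anchor, had 64.1, 56.3 and 53.0 CPM in PBS and 72.2, 70.0 and 71.9 CPM in WGP (log2 fold change 0.30 ± 0.15, adjusted p = 0.248). Sdha, the flavoprotein that oxidizes succinate, had 151, 185 and 194 CPM in PBS and 199.7, 194 and 213 CPM in WGP, where the highest PBS and the lowest WGP library nearly met (log2 fold change 0.20 ± 0.15, adjusted p = 0.428).

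Complex III, which hands electrons from ubiquinol to cytochrome c, had 1 rise among its 8 members (12.5%, beside 7.54% of all genes) and a median of 0.31. Uqcrfs1, the Rieske iron-sulphur protein, was at 45.9, 35.3 and 33.5 CPM in PBS and at 61.0, 62.3 and 70.0 CPM in WGP, with no overlap (log2 fold change 0.75 ± 0.18, adjusted p = 0.0199, lost in 6 of 19 alternative analyses). Uqcrq, a small accessory subunit, had a log2 fold change of 0.63 ± 0.21 (adjusted p = 0.0766), with 31.6, 31.8 and 45.2 CPM in PBS and 64.1, 47.7 and 56.2 CPM in WGP. The core protein gene Uqcrc1 had 101, 114 and 97.9 CPM in PBS and 130.3, 130.3 and 129.6 CPM in WGP (log2 fold change 0.32 ± 0.14, adjusted p = 0.164). Uqcr10 stood at the other end, with 41.0, 26.2 and 31.6 CPM in PBS, 28.3, 30.9 and 39.8 CPM in WGP and a log2 fold change of 0.00 (adjusted p = 0.998).

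Complex IV, cytochrome c oxidase, had 6 rises among 15 tested members (40.0%, beside 7.54% of all genes) and a median of 0.39. With the Y-linked covariate, which sets WGP against PBS-1 alone, fewer of these passed and the median was 0.20. The 6 were Cox5a, Cox7a2, Cox8a, Cox6b1, Cox6c and Cox4i1, each the only or the ubiquitous form of its subunit. Cox5b, Cox6a1, Cox7b and Cox7a2l lay higher in every WGP library and did not pass, with log2 fold changes from 0.25 to 0.52. Cox7c, with 33.8, 23.3 and 35.2 CPM in PBS and 38.0, 29.4 and 38.9 CPM in WGP, had the largest p of the abundant members of the complex (log2 fold change 0.20 ± 0.23, adjusted p = 0.626).

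Cox5a (ENSMUSG00000000088, chr9:57521274-57532426), which joins the complex early in its assembly, was at 53.1, 35.9 and 45.5 CPM in PBS and at 101, 84.9 and 88.2 CPM in WGP, a log2 fold change of 1.03 ± 0.18 (adjusted p = 0.00384). Cox7a2 was at 47.1, 40.5 and 39.7 CPM in PBS and at 74.0, 78.2 and 76.7 CPM in WGP (log2 fold change 0.85 ± 0.16, adjusted p = 0.00478). Cox8a, the smallest of the ubiquitous subunits, was at 118, 99.8 and 97.6 CPM in PBS and at 169.6, 168 and 210.3 CPM in WGP (log2 fold change 0.80 ± 0.15, adjusted p = 0.0061). All 3 genes were clear of overlap, and Cox8a was also the most abundant member per length of transcript, with a mean of 169.6 CPM per kb in PBS and 295 in WGP. Cox6b1, which sits where a pair of complexes meets as a dimer, had 85.8, 106 and 88.4 CPM in PBS and 141, 132 and 153 CPM in WGP (log2 fold change 0.60 ± 0.15, adjusted p = 0.0203, lost in 3 of 19 alternative analyses). Cox6c and Cox4i1 rose by 0.54 and 0.48 on the log2 scale, at adjusted p of 0.0456 and 0.0415, and these calls were lost in 13 and 11 of the 19 alternative analyses.

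The tissue-restricted forms of complex IV were scarce. Cox4i2, Cox7b2 and Cox8c had 0 counts in all 6 libraries, and so had the second Ensembl entry of Atp5o, so these 4 were not tested. Cox6a2, the form of heart and muscle, was at 0.936, 0.539 and 1.54 CPM in PBS and 0.407, 0.169 and 0.44 in WGP, without overlap, and with a log2 fold change of -1.56 ± 1.97 it did not pass (adjusted p = 0.676). Cox8b was found in PBS-1 alone, at 1.22 CPM, Cox7a1 lay between 0 and 1.85 CPM, and the testis form Cox6b2 between 1.56 and 3.76 CPM. These genes and Ndufa4l2, Ndufb4, Ndufc1, Ndufs5 and Atp5s were the 9 tested members with a mean under 10 CPM, of which 8 were lower in WGP and none passed in either direction. The counts of Ndufb4 were 247, 0 and 32 in PBS and 9, 72 and 63 in WGP, which spans more within each group than between them, and for Atp5s, which is no subunit of the mature enzyme, the levels were 6.53, 1.64 and 4.76 CPM in PBS and 2.74, 0.965 and 3.45 CPM in WGP.

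Within the Cox7a group, Cox7a2 took 43.7, 43.4 and 43.1% of the summed Cox7a level per kb in PBS and 52.6, 55.9 and 53.1% in WGP, a difference of 10.5 percentage points, and Cox7a2l, a related protein, took 54.4% ± 1.5 and 45.7% ± 1.4 (SD, n = 3 each). The exact two-sided permutation test gave p = 0.1 for both, the smallest p that 3 against 3 libraries allow, and 0.144 adjusted over the 13 isoform shares tested. No share could therefore pass, and the differences are given for their size.

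Complex V, the ATP synthase, had 3 rises among 17 tested members (17.6%, beside 7.54% of all genes) and a median of 0.41. Of the catalytic F1 head and central stalk, 0 of 5 members rose, of the peripheral stalk 1 of 4 (Atp5f1), of the membrane-embedded c ring 1 of 3 (Atp5g3) and of the other membrane subunits 1 of 4 (Atp5mpl). Atp5b, the catalytic β subunit, just missed the threshold, with 447, 375 and 372 CPM in PBS, 564, 577 and 523 CPM in WGP and an adjusted p of 0.0504 (log2 fold change 0.48 ± 0.14). Its partner Atp5a1 had a log2 fold change of 0.19 ± 0.13 (adjusted p = 0.407), again with every WGP library above every PBS library.

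Atp5g3 (ENSMUSG00000018770, chr2:73908447-73911326), 1 of the 3 genes for the c subunit, was at 80.0, 73.1 and 78.1 CPM in PBS and at 123, 138 and 129 CPM in WGP (log2 fold change 0.75 ± 0.14, adjusted p = 0.00441). Atp5f1, the b subunit that holds the stator, was at 86.5, 83.0 and 93.2 CPM in PBS and at 132, 142 and 138 CPM in WGP (log2 fold change 0.65 ± 0.14, adjusted p = 0.00872). Atp5mpl, a small membrane subunit, was at 23.7, 21.0 and 25.8 CPM in PBS and at 38.2, 37.1 and 47.5 CPM in WGP (log2 fold change 0.80 ± 0.20, adjusted p = 0.0238, lost in 4 of 19 alternative analyses). In all 3 genes the lowest WGP library was above the highest PBS library. Atp5l, the g subunit, had the log2 fold change nearest to 0 among complex V members over 10 CPM (0.05, adjusted p = 0.935), with 26.8, 20.5 and 26.8 CPM in PBS and 32.2, 18.7 and 25.8 CPM in WGP. Of the other c subunit genes, Atp5g1 had 32.8, 37.4 and 27.0 CPM in PBS and 35.1, 44.8 and 39.0 CPM in WGP (adjusted p = 0.4), and Atp5g2 12.0, 12.6 and 8.38 CPM in PBS and 13.3, 19.5 and 16.9 CPM in WGP (adjusted p = 0.267). Atp5g1 gave 13.6% ± 1.9 of the summed c subunit level per kb in PBS and 10.4% ± 0.41 in WGP (SD, n = 3, p = 0.1 in the exact permutation test).

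Sdhd and Atp5g3 passed in all 19 alternative analyses, and Cox5a, Cox7a2, Cox8a, Sdhb and Atp5f1 in 18 of them. Cox5a, Cox7a2, Cox8a and Sdhb did not pass with the Y-linked covariate, which sets WGP against PBS-1 alone. Their log2 fold changes were then 0.78, 0.70, 0.63 and 0.70. The adjusted p of Atp5f1 exceeded the threshold without PBS-2 (0.0522).

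Ndufa4 had a lower mean in WGP and did not pass, and its paralogue AA467197 rose by more than any member that passed. Ndufa4 carries a complex I name but is known as a subunit of complex IV, and AA467197, the mouse homologue of human C15orf48 or NMES1, encodes a related small protein that is known to take the place of NDUFA4 in complex IV in inflammatory cells. AA467197 is not a member by the symbol rule and was taken up with the isoform groups. Ndufa4 was at 71.0, 44.0 and 48.4 CPM in PBS and at 40.6, 44.3 and 32.7 CPM in WGP, where the groups overlapped and the log2 fold change of -0.47 ± 0.22 did not pass (adjusted p = 0.216). The fit with the Y-linked covariate sets WGP against PBS-1 alone, with its 71.0 CPM, and gave a log2 fold change of -0.86 for Ndufa4.

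AA467197 (ENSMUSG00000033213) had 121, 139 and 19 counts in PBS and 1184, 3372 and 1688 counts in WGP. The lowest WGP library held over 8 times the counts of the highest PBS library, and the log2 fold change was 4.43 ± 0.66 (adjusted p = 0.00134), past the threshold in all 19 alternative analyses. Per kb of transcript, the ratio of AA467197 to Ndufa4 was 0.0509, 0.093 and 0.011 in PBS and 0.908, 2.10 and 1.45 in WGP. AA467197 thus made up 4.76% ± 3.67 of the summed level of Ndufa4, Ndufa4l2 and AA467197 in PBS and 57.8% ± 10.1 in WGP (SD, n = 3), and Ndufa4 94.3% ± 4.2 and 41.5% ± 10.2. The exact permutation test gave p = 0.1 for both shares, the smallest it can give here, and the adjusted value was 0.144. These are levels of RNA in a mixed population, and whether both genes are transcribed in the same cells was not measured. The RefSeq gene of the microRNA Mir147 lies inside AA467197 on the same strand (chr2:122640803-122640881 within chr2:122636986-122641191, GRCm38), and mature microRNAs were not measured.

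**Figure D3:**
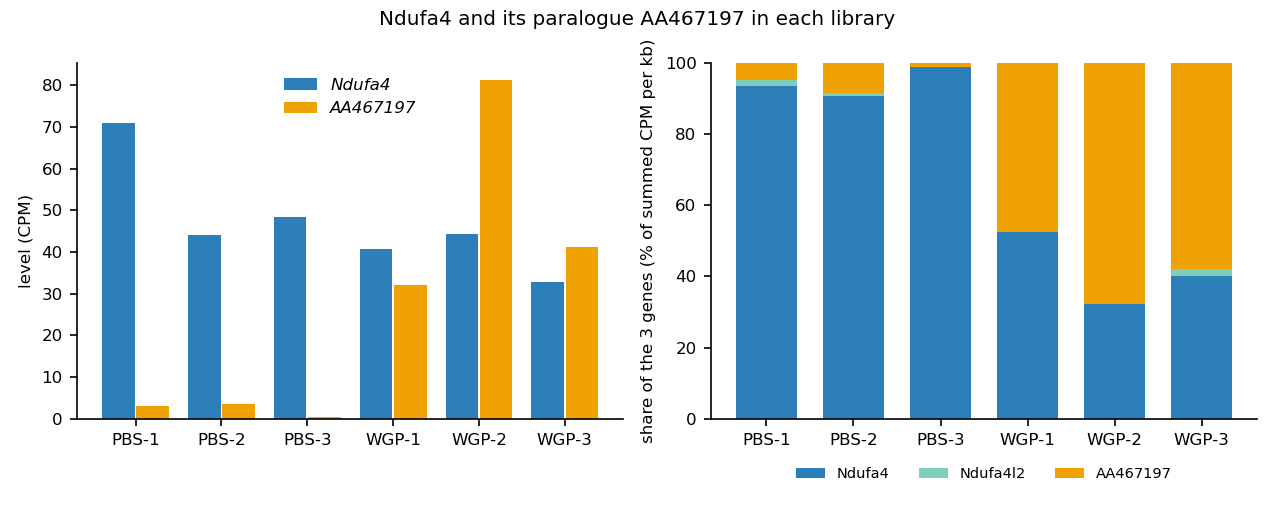
The left panel shows the level of Ndufa4 and AA467197 in each library (bars, CPM), and the right panel the share of each of 3 paralogues in their summed CPM per kb. AA467197 is between 0.464 and 3.57 CPM in the PBS libraries and between 32.1 and 81.3 CPM in the WGP libraries, where its share is 47.6 to 67.8%.

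Among other genes of the pathway, some rose and most did not pass. Cycs, cytochrome c, was at 23.7, 17.5 and 20.6 CPM in PBS and at 39.9, 33.4 and 42.1 CPM in WGP, and it rose by 0.90 ± 0.21 on the log2 scale (adjusted p = 0.0171, lost in 4 of 19 alternative analyses). Cyc1, the cytochrome c1 of complex III, whose symbol is outside the rule, had a log2 fold change of 0.57 ± 0.20 (adjusted p = 0.0904). Of 49 tested assembly factors 2 rose (4.08%, beside 7.54% of all genes) and 0 fell (beside 6.81%), with a median of 0.23, and both were complex IV factors. Only 24 of the 49 had a mean of at least 10 CPM, against 72 of the 81 subunits tested. The part of abundance in these counts was not tested. Cox17, the copper chaperone of complex IV, was at 8.30, 5.21 and 3.67 CPM in PBS and at 25.4, 25.2 and 22.1 CPM in WGP (log2 fold change 2.08 ± 0.35, adjusted p = 0.0029). Coa5 was at 93.3, 106 and 99.4 CPM in PBS and at 182, 289 and 231 CPM in WGP (log2 fold change 1.23 ± 0.18, adjusted p = 0.00122). Both lay far from overlap. The complex I factors Acad9 and Foxred1 had log2 fold changes of -0.75 and 0.69 and did not pass (adjusted p = 0.0786 and 0.11), and 0 of the 15 tested complex I factors, 0 of 4 for complex II, 0 of 6 for complex III and 0 of 3 for complex V passed in either direction. Next by p in these lists, and without passing, were Tmem186 for complex I (log2 fold change 0.84), Sdhaf3, Sdhaf1 and Sdhaf4 for complex II (-1.98, -0.32 and 0.45), Uqcc2, Bcs1l and Uqcc3 for complex III (0.48, 0.46 and -0.25), Pet100 for complex IV (0.44) and Tmem70, Atpaf1 and Atpaf2 for complex V (0.41, -0.39 and 0.11), at adjusted p from 0.247 to 0.835. At an unadjusted p under 0.05 the assembly factors counted 3 higher and 1 lower, of 49, where 12.9 and 13.1% of all genes were.

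Of the regulators of respiratory chain transcription 2 of 12 rose (16.7%, beside 7.54% of all genes) and 0 fell (beside 6.81%), with a median of -0.13. Ppargc1b, a coactivator of mitochondrial genes, was at 6.89, 7.24 and 8.41 CPM in PBS and at 30.4, 30.3 and 33.8 CPM in WGP, a log2 fold change of 2.07 ± 0.24 (adjusted p = 0.000302). Esrra, the nuclear receptor ERRα that Ppargc1b coactivates, was at 28.0, 39.6 and 45.7 CPM in PBS and at 79.8, 69.7 and 72.3 CPM in WGP (log2 fold change 0.97 ± 0.20, adjusted p = 0.00916). Both passed in all 19 alternative analyses. Nrf1, Gabpa, Tfam and Polrmt, which serve transcription of subunit genes or of the mitochondrial genome, had log2 fold changes between -0.22 and -0.04 and adjusted p from 0.615 to 0.903. Yy1 lay below every PBS library in WGP and did not pass (log2 fold change -0.32, adjusted p = 0.179), and Ppargc1a was at most 0.364 CPM in any library.

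Of 6 regulators and alternative isoforms 2 rose, AA467197 and Higd1a (33.3%, beside 7.54% of all genes), and 0 fell (beside 6.81%). In this list 4 genes were higher and 2 lower. Higd1a, a hypoxia-inducible protein that binds complex IV, rose by 1.20 ± 0.34 on the log2 scale (adjusted p = 0.0421, lost in 7 of 19 alternative analyses). It went from 9.42, 7.44 and 5.42 CPM in PBS to 15.9, 14.2 and 20.9 CPM in WGP. Higd2a had 65.3, 60.0 and 44.5 CPM in PBS and 34.9, 37.1 and 45.0 CPM in WGP. It was lower without passing (log2 fold change -0.54 ± 0.20, adjusted p = 0.115). Ucp1, at most 4.27 CPM in any library, was also lower and did not pass (adjusted p = 0.11). Ucp2, an abundant inner membrane carrier, had 1380, 1352 and 1786 CPM in PBS and 2270, 1855 and 2246 CPM in WGP and did not pass (log2 fold change 0.50 ± 0.17, adjusted p = 0.0834). Among 7 carriers and channels for adenine nucleotides and phosphate 1 rose (14.3%), the outer membrane channel Vdac2, at 123, 123 and 124 CPM in PBS and 201.8, 251 and 238 CPM in WGP (log2 fold change 0.90 ± 0.14, adjusted p = 0.00176). The ADP/ATP carrier Slc25a5 had a log2 fold change of 0.46 (adjusted p = 0.0585). In protein import 1 of 24 genes rose (4.17%, below the 7.54% of all genes), the receptor Tomm22 (log2 fold change 0.64 ± 0.16, adjusted p = 0.0246, lost in 4 of 19 alternative analyses), and 0 of 11 genes of mitochondrial fusion, fission and membrane shape passed in either direction, with Fis1 nearest (log2 fold change 0.51, adjusted p = 0.0506). In ubiquinone synthesis 0 of 11 genes rose and 1 fell, beside 7.54 and 6.81% of all genes. The gene that fell was Coq8a, from 21.7, 14.1 and 10.3 CPM in PBS to 6.43, 4.003 and 6.84 CPM in WGP (log2 fold change -1.42 ± 0.41, adjusted p = 0.0423, lost in 8 of 19 alternative analyses). The other genes with the smallest p of these 4 lists did not pass: the channel Vdac1 (log2 fold change 0.38), the import genes Tomm40 and Tomm70a (0.73 and 0.36), Immt and Chchd3 of the inner membrane (0.31 and 0.26), and Coq2 and Coq7 (0.37 and 0.93), at adjusted p from 0.0878 to 0.396.

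**Figure D4:**
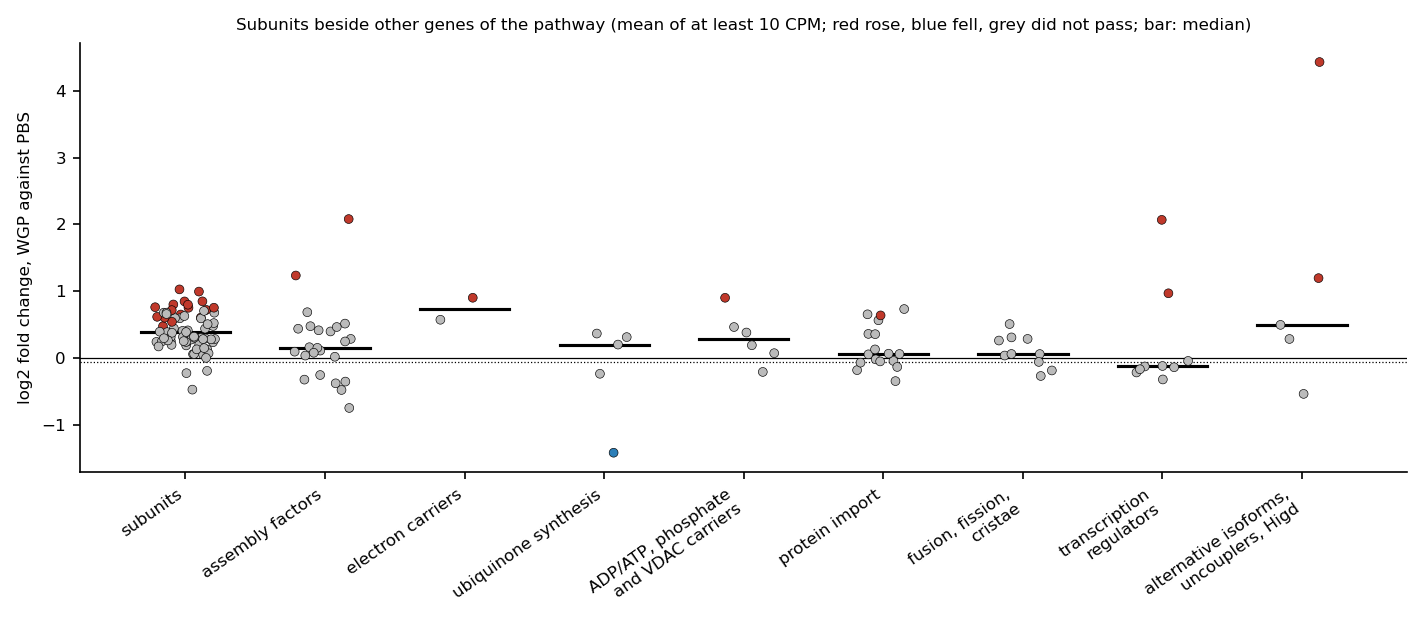
The log2 fold change of WGP against PBS (y axis) is plotted for each gene with a mean of at least 10 CPM, for the subunits and 8 other lists of the pathway, with a bar at the median of each list and a dotted line at the median of all genes tested. The 72 subunits have a median of 0.39, the 24 assembly factors 0.16 and the 9 transcription regulators -0.13, and AA467197 is the highest point at 4.43.

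Promoters of the members were searched for motifs of factors known to act on subunit genes, in windows from 250 bases before to 50 bases after each RefSeq start (GRCm38.p6), and RefSeq windows matched 66 of the 84 symbols. The letters searched, on both strands, were CGCATGCG (NRF1), CCGGAAGT (ETS factors such as GABPA), AAGATGGCG (YY1) and TCAAGGTCA (ERR), and no match overlapped another. The last was added after Esrra had been seen to rise and its letters had been seen upstream of Atp5g3. At least 1 of the 4 was present in 29.6% of the 71 member windows and in 7.21% of all 32851 windows. By motif, NRF1 was in 12.7% of member windows and 1.87% of all, ETS in 7.04 and 3.89%, YY1 in 9.86 and 1.4%, and ERR in 2.82 and 0.423%. The motifs did not divide the members by response in 1 way: 3 of 13 windows of members that rose held any motif (23.1%), as did 18 of 57 windows of tested members that did not pass (31.6%). NRF1 and YY1 letters were in 0 of the 13 and in 9 and 7 of the 57, and ERR letters in 2 of the 13, Atp5g3 and Sdhd, and in 0 of the 57. These counts are a description of letters, with no test.

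The 120 bases before the RefSeq start are printed for the 3 members with the smallest p and, for comparison, for Ndufa11, which did not pass (log2 fold change 0.68 ± 0.25, adjusted p = 0.104). Capitals mark a searched motif, the reversed ERR letters before Atp5g3 and the NRF1 letters before Ndufa11. The windows before Sdhd (chr9:50603850-50603969, minus strand) and Cox5a (chr9:57521112-57521231, plus strand) hold none, and the ERR letters of Sdhd lie after its start, outside the stretch printed. The windows of Atp5g3 (chr2:73911327-73911446, minus strand) and Ndufa11 (chr17:56717642-56717761, plus strand) follow.
Sdhd: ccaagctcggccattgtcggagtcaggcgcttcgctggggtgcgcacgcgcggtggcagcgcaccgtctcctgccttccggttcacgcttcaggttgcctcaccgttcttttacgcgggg
Cox5a: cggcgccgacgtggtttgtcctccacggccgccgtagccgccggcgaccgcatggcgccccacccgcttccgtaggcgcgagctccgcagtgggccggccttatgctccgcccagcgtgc
Atp5g3: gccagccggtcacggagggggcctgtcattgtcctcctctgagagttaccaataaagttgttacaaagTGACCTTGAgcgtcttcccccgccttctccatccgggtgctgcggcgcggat
Ndufa11: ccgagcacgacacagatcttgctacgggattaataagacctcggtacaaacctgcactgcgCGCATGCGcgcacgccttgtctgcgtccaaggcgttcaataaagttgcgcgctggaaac

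Subunit genes have many processed pseudogenes, so the stretches they share with other genes were counted. Of the 85 members, 38 share at least 1 stretch of 75 bases with another annotated gene, 24 of them with a pseudogene, where reads could have been split or left uncounted. The shared part of the transcript was 35.8% for Atp5g2, 34.2% for the expressed entry of Atp5o, 27.8% for Ndufb6, 25.6% for Ndufa13, 19.6% for Cox7c and 17.2% for Ndufb4, and 83.8% for the Atp5o entry without counts, so these values are uncertain. Among the 17 members that rose, 5 share any (Ndufb5 10.6%, Atp5f1 10.1%, Cox6c 6.67%, Cox5a 5.91% and Cox4i1 4.61%), and for Ndufa4 the share was 0.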

How the data were processed

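The authors aligned the reads to the mouse genome (mm10, GRCm38.p6) with STAR 2.6 and counted them per Ensembl gene with HTSeq 0.10.0, per the labels, and deposited raw counts per gene and library without normalization. The strand setting is not given in the sources used here. Genes were named with GENCODE vM21.

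Differential expression was computed from the counts in R 4.3.3 with the quasi-likelihood test of edgeR 4.0.16 after TMM scaling, with all 6 libraries and no covariate, on 14429 protein-coding genes whose RLE-normalized counts summed to 10 or more. A gene rose or fell where its p, adjusted by Benjamini-Hochberg over all genes tested, was 0.05 or less. Standard errors were obtained by dividing the log2 fold change by the root of the F statistic. Levels are CPM after TMM scaling, divided by exonic length in kb where genes are compared. Isoform shares were compared with an exact permutation test (scipy 1.17.1). Scripts were tested on simulated data.

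Members and lists were chosen with earlier results of these data known. Named were, in each complex, the 3 smallest p and the largest p among members with a mean of at least 10 CPM. Also named were the 5 largest and 5 smallest fold changes, all isoform groups, Sdha to Sdhd, and the 3 smallest p of each pathway list. Other members appear by count or range or were chosen after their values were seen. Alternatives were 19 fits, with DESeq2 1.42.0 and limma 3.58.1 among them. Individual values of 1 member are left out of the text.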

Additional observations from a re-analysis of the deposited data

How the results depend on the processing

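The count of members that rose, 17, was between 14 and 19 under RLE or upper-quartile scaling, DESeq2, limma-voom, cyclic loess, the filters on low counts, all features, the length trend and the replicate block. It was 10 with library totals as the only scaling, 4 with the Y-linked covariate and 1 with a log2 fold change of at least 1 required, a rule under which 653 genes rose in all. The count of members that fell was 1 with the Y-linked covariate and 0 in the other 18 fits. Leaving out 1 library gave 7 to 16 members that rose and 0 that fell, and 774 to 1152 rises and 645 to 1051 falls over all genes, with the fewest falls without PBS-2.

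With library totals the median of all genes moved from -0.05 to -0.16 on the log2 scale and the medians of the members moved with it, to 0.18 in complex I, 0.43 in II, 0.20 in III, 0.28 in IV, 0.31 in V and 0.21 over all members. Relative to all genes the members' median was 0.37 in the reported fit, 0.36 with library totals and between 0.28 (Y-linked covariate) and 0.47 (without WGP-2) over all fits. Cyclic loess gave medians of 0.45 in complex II, 0.22 in III and 0.32 in V. Removing the trend with exonic length gave 0.36 in complex III and 0.39 over all members. Requiring 10 counts in every library gave 0.49 in complex IV, where fewer genes were tested. The Y-linked covariate gave 0.20 in complex IV and 0.34 in V. Leaving out 1 library gave medians of 0.27 to 0.42 in complex I, 0.50 to 0.59 in II, 0.28 to 0.38 in III, 0.33 to 0.46 in IV, 0.37 to 0.43 in V and 0.31 to 0.38 over all members. Apart from what the settings themselves change, the cause was not tested.

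On raw counts instead of levels per kb, the Atp5g1 share differed by -5.54 percentage points in place of -3.18. Leaving out 1 library gave differences of -4.04 to -2.14 points for Atp5g1, -2.09 to 0.222 for Atp5g2, 1.92 to 6.13 for Atp5g3, 0.454 to 0.807 for Cox6a1, 0.573 to 1.17 for Cox6b1, -2.40 to -1.07 for Cox7a1, 9.46 to 11.1 for Cox7a2, -9.40 to -7.90 for Cox7a2l, -58.2 to -48.1 for Ndufa4, -0.894 to 0.27 for Ndufa4l2 and 48.0 to 58.1 for AA467197, with Cox6a2 and Cox6b2 the mirror of their partners (-0.807 to -0.454 and -1.17 to -0.573).

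Same-numbered libraries did not deviate together (correlations of 0.045, -0.087 and 0.073), so the numbers pair nothing. With a replicate block 14 members rose, all among the 17, and 0 fell. No named gene reversed a call. The 9 tested members under 10 CPM had standard errors of up to 4.33 on the log2 scale, and the part of depth in them was not tested.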
